A study of Mus musculus with 8 samples.

Results

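NRF2, the transcription factor encoded by Nfe2l2, its inhibitor KEAP1 and 8 antioxidant genes that NRF2 is known to drive were examined in bone marrow-derived macrophages (BMDMs). These 10 genes (Nfe2l2, Keap1, Gclm, Gclc, Gsr, Txnrd1, Srxn1, Prdx1, Hmox1 and Nqo1) were taken by name from the 23761 genes in the deposited table, and all 10 were listed. BMDMs are macrophages grown from marrow, here for 6 days in DMEM with medium conditioned by L929 fibroblasts. Control mice (LysM) had the genotype LysM Cre/Cre, and knockout mice (K2KO) had the genotype LysM Cre/Cre KLF2 flox/flox. Cre recombinase is thus present in both genotypes, inserted at lysozyme M, a gene active in macrophages and neutrophils, and the mice were 3 months old. The study states a C57BL/6J background for all its mice. The labels mark the samples of both genotypes as given vehicle, with no other treatment among them. The study asked how loss of the transcription factor KLF2 in these cells changes transcription. Total RNA of 4 LysM and 4 K2KO samples was sequenced, and expression is given as FPKM, fragments per kilobase of transcript after scaling for library size. The libraries are named here LysM0 to LysM3 and K2KO0 to K2KO3 after the number that ends each column name of the table, which gives the genotype but not the mouse.

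KEAP1 holds NRF2 in the cytoplasm and, with the ubiquitin ligase scaffold CUL3, sends it for degradation. Oxidants and electrophiles modify cysteines of KEAP1, NRF2 then builds up, enters the nucleus and binds antioxidant response elements together with small MAF proteins. Much of this control therefore acts on the NRF2 protein, which RNA-sequencing does not measure. In macrophages the pathway is known for supplying glutathione and thioredoxin, for breaking down heme and for restraining inflammatory gene expression.

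Klf2, the gene floxed in K2KO mice, checks the labels. Its expression was 44.1, 52.9, 64.7 and 72.8 FPKM in LysM0 to LysM3 and 45.5, 41.6, 59.2 and 59.3 FPKM in K2KO0 to K2KO3. The groups overlapped, with means of 58.7 ± 12.7 and 51.4 ± 9.22 FPKM (SD, n = 4 each), and an exact two-sided permutation test gave p = 0.429. Whether the floxed part of Klf2 still contributes to these FPKM was not tested, so each direction below is that of the libraries labelled K2KO.

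The libraries had the RNA of macrophages. All 10 macrophage markers had a mean of at least 1 FPKM, the lysosomal protein gene Cd68 was the most abundant at 1637 to 1942 FPKM over the 8 libraries, and none was at 0. Their summed level was 4357, 4503, 4366 and 4509 FPKM in LysM0 to LysM3 and 4012, 3914, 4115 and 4154 FPKM in K2KO0 to K2KO3. The sum was thus lower in every library labelled K2KO (4434 ± 83.5 against 4049 ± 108 FPKM, SD, n = 4 each, exact two-sided permutation test p = 0.0286, the smallest that 4 against 4 libraries can give). In bulk RNA, fewer cells of a type and less RNA per cell cannot be told apart. The difference lay mostly in Cd14, a co-receptor for lipopolysaccharide, with means of 1028 and 829 FPKM and no overlap (log2 fold change -0.32, limma adjusted p = 0.063), and in Aif1, with 253 and 156 FPKM. Adgre1 (433 and 440 FPKM), Csf1r (524 and 526 FPKM) and Cd68 (1834 and 1779 FPKM) had ratios of means of 1.02, 1.005 and 0.97. Itgam (66.4 and 56.3 FPKM) and Fcgr1 (124 and 102 FPKM) had ratios of 0.85 and 0.82, with overlap between the genotypes. The median log2 fold change of the 10 markers was -0.17, with 3 above 0. The summed FPKM of all listed genes was lower as well (531755 ± 23776 against 473577 ± 23980, SD, n = 4 each, exact two-sided permutation p = 0.0571), and as a percent of it the macrophage markers made up 0.835 ± 0.0303 and 0.856 ± 0.0282 (exact permutation p = 0.371). Of the 10 markers 3 were called by limma, beside 18.4% of all tested genes. Mertk rose, while Aif1 (limma adjusted p = 0.0496, and not called in 8 of the 11 alternatives that kept each library) and Lyz2, the gene at which Cre is inserted, fell. Actb, which encodes the abundant structural protein beta-actin, had a mean of 2820 ± 138 in LysM and 2188 ± 218 FPKM in K2KO libraries (SD, n = 4 each) without overlap (log2 fold change -0.37, limma adjusted p = 0.0239), and its log2 fold change was 0.0061 under quantile normalization. With 1 library left out, Mertk, Aif1 and Actb kept their calls only without LysM0 or K2KO3, and Lyz2 lost its call without LysM1, LysM3, K2KO0 or K2KO2 (highest limma adjusted p of the 4 genes 0.129). After a correction for GC content and length, Mertk (0.28, limma adjusted p = 0.0734), Lyz2 (-0.44, limma adjusted p = 0.0559) and Aif1 (-0.56, limma adjusted p = 0.0708) were not called. Neutrophil markers, led by S100a9, summed to 219 ± 53.5 and 218 ± 52.5 FPKM (SD, n = 4 each, exact permutation p = 0.971), with Ly6g at 0 in K2KO2. S100a9 and S100a8 carried most of this sum, and 1 of the 7 neutrophil markers tested by limma (14.3%) was called, a share below that of all tested genes. This was Camp, which encodes a cathelicidin of neutrophil granules, at 12.6, 14.8, 11.1 and 16.01 FPKM in LysM0 to LysM3 and at 4.04, 6.77, 4.99 and 9.78 FPKM in K2KO0 to K2KO3. It fell without overlap between the genotypes (log2 fold change -1.14, limma adjusted p = 0.0178), and the call was lost without LysM1, LysM3 or K2KO2 (highest limma adjusted p = 0.0554). Dendritic cell markers summed to 14.2 and 11.7 FPKM, and those of fibroblasts, lymphocytes, red cells, endothelium, and basophils and mast cells to between 0.679 and 4.49 FPKM as genotype means. Of these lists, fibroblast markers went from 0.679 ± 0.546 to 1.80 ± 1.27 FPKM (SD, n = 4 each, exact permutation p = 0.171), with Dcn, the most abundant, highest in K2KO0. The part of the lower macrophage sum and of the lower Camp in the differences below was not tested.

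The 10 genes spanned a wide range of levels. In LysM BMDMs Prdx1 had the highest mean at 910 FPKM, followed by Hmox1 at 674 FPKM, and the ranges of the pair overlapped. Nfe2l2 came next at 74.4 FPKM, apart from both neighbours. Srxn1 (39.6), Txnrd1 (38.2), Gsr (27.5), Keap1 (23.1) and Gclm (17.6 FPKM) formed a run in which each range overlapped that of the next gene. Gclc at 4.54 FPKM and Nqo1 at 1.20 FPKM stood apart below them. In the libraries labelled K2KO, Gclm lay one place higher in this order, with a mean of 32.0 FPKM against 20.8 FPKM for Keap1 and no overlap between the ranges.

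Sequence motifs for NRF2 were looked up in the RefSeq promoter windows (GRCm38.p6, the assembly behind mm10), which run from 250 bases before to 50 bases after each annotated start. Of the 10 genes, 7 were matched by symbol, with 9 windows, and Hmox1, Gclc and Gsr were not matched. The core of the antioxidant response element, TGACNNNGC on either strand, was found in 5 of the 9 windows, those of Nfe2l2, Gclm, Txnrd1, Prdx1 and Srxn1, against 12.4% of all 32851 windows. The stretches around these matches are shown because they hold the letters that NRF2 is known to read at this gene group. Each is written 5′ to 3′ on the strand of its gene, with the match in capitals, which reads GCNNNGTCA where the motif lies on the opposite strand.
Nfe2l2, chr2:75704870-75704913, minus strand: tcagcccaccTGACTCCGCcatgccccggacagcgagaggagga
Gclm, chr3:122245398-122245456, plus strand: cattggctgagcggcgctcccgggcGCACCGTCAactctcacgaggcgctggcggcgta
Txnrd1, chr10:82859089-82859147, plus strand: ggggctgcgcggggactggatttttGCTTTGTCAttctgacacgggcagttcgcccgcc
Prdx1, chr4:116685441-116685499, plus strand: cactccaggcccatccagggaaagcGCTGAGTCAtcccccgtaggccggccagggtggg
Srxn1, chr2:152105542-152105570, plus strand: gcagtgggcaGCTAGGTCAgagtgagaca
The match begins 240 bases before the start in Nfe2l2, 134 bases before it in Gclm, 133 bases before it in Prdx1 and 92 bases before it in Txnrd1, where 1 of 3 windows holds it. In Srxn1 it lies 29 bases after the start. A match of letters does not show a bound site, and the windows of Keap1 and Nqo1 hold no such letters.

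Expression was compared between the genotypes with limma on the log2(FPKM + 0.1) scale over the 10920 genes with a mean of at least 1 FPKM, a scale that understates the change of low genes. A gene was called when its Benjamini-Hochberg adjusted p lay under 0.05 and its log2 fold change exceeded 0.26 in size. All 10 genes of the NRF2 group passed the filter. Of these, 4 (Nfe2l2, Gclm, Gclc and Txnrd1) were called higher in the libraries labelled K2KO and none lower. An unadjusted p under 0.05 in the limma fit was found for 6 of the 10. The share of all tested genes under that unadjusted p is not given here. No excess is therefore read from this count or from the like counts further below. Among all tested genes 9.84% were called higher, 8.61% lower and 18.4% in either direction. The log2 fold change was above 0 for 9 of the 10 genes, with a median of 0.26, beside a median of 0.011 over all tested genes. Under quantile normalization, which gives every library the same distribution of values, the median of the 10 was 0.41 and that of all tested genes 0.0022. Higher genes made up 53.3% of the 2014 calls, and 64.2% of 2088 calls when each library was scaled to the same upper quartile, a setting in which Srxn1 was also called.

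**Figure D1:**
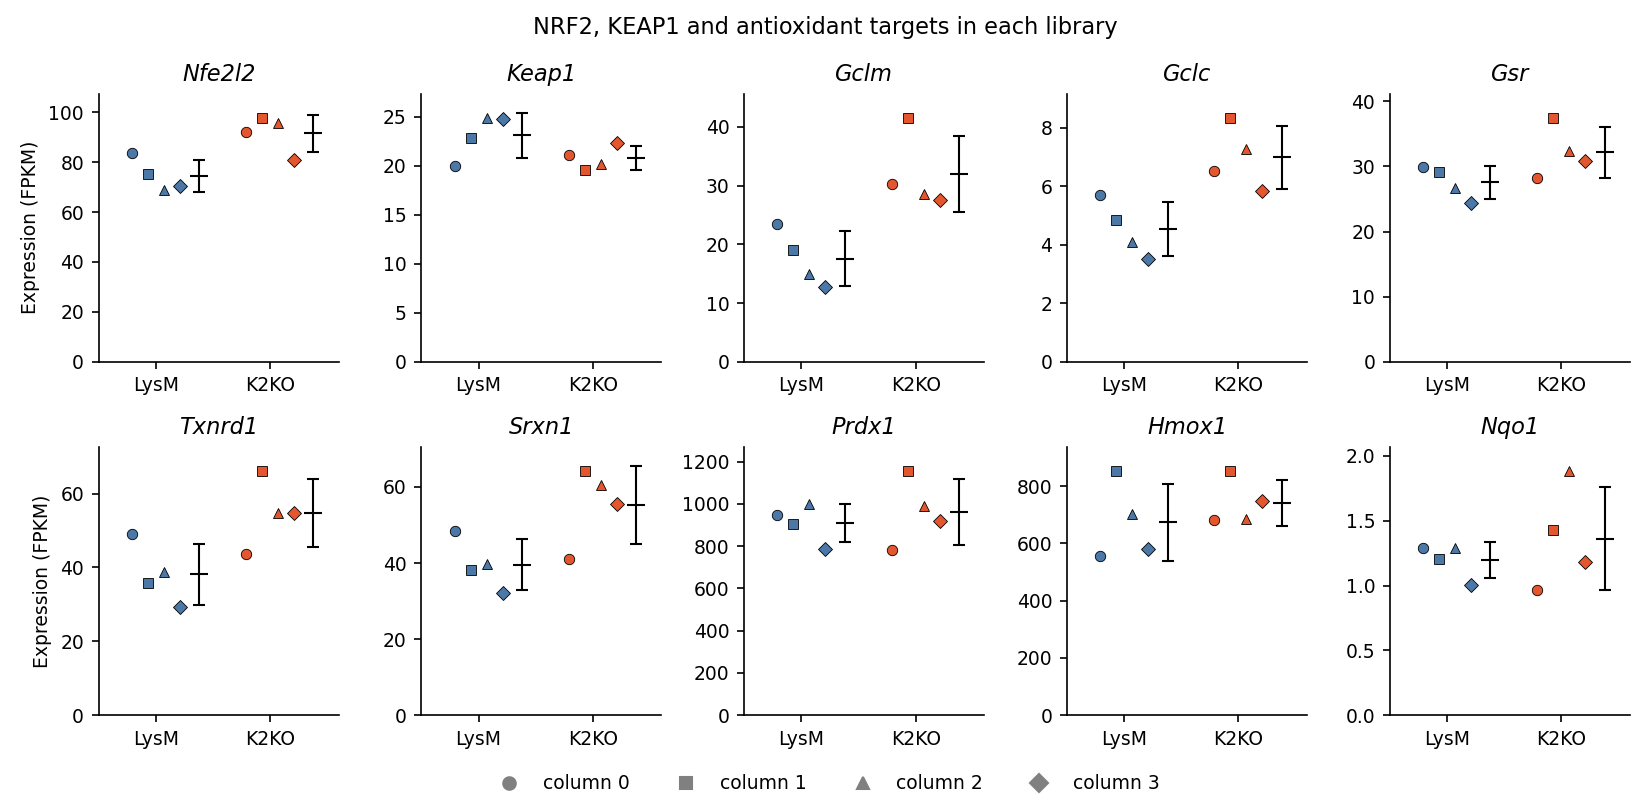
Expression (FPKM, linear axes from 0) of Nfe2l2, Keap1 and 8 NRF2 targets in each of the 8 libraries. Blue points are LysM and red points K2KO libraries, marker shapes give the number ending the column name, and the bar beside each group is the mean with SD (n = 4). Gclm and Gclc are the 2 genes in which every K2KO point lies above every LysM point.

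Nfe2l2, which encodes NRF2 itself (ENSMUSG00000015839.6, chromosome 2, 75675513 to 75704641, minus strand of GRCm38), was at 83.4, 75.1, 69.0 and 70.2 FPKM in LysM0 to LysM3 and at 91.8, 97.7, 95.5 and 80.7 FPKM in K2KO0 to K2KO3. Only K2KO3 was within the range of the LysM libraries, below LysM0. The mean went from 74.4 ± 6.55 to 91.4 ± 7.53 FPKM (SD, n = 4 each), a ratio of 1.23. Nfe2l2 rose by a log2 fold change of 0.30 (SE 0.084, 95% interval 0.11 to 0.49, limma adjusted p = 0.038). The call was lost when any one of LysM1, LysM2, LysM3, K2KO0, K2KO1 or K2KO2 was left out (highest limma adjusted p = 0.107).

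Keap1 encodes the adaptor that captures NRF2 for degradation (ENSMUSG00000003308.14, chromosome 9, 21229730 to 21239361, minus strand) and was the 1 gene of the 10 with a log2 fold change below 0. It was at 20.003, 22.8, 24.9 and 24.8 FPKM in LysM0 to LysM3 and at 21.1, 19.5, 20.2 and 22.3 FPKM in K2KO0 to K2KO3. The ranges overlapped through LysM0, and the log2 fold change of -0.15 (SE 0.081, 95% interval -0.33 to 0.034) did not pass (limma adjusted p = 0.206). The antisense gene Gm16754 overlaps Keap1 but was listed at a mean of 0.567 FPKM. Read as a ratio, Nfe2l2 over Keap1 was 4.17, 3.30, 2.78 and 2.83 in the LysM libraries and 4.36, 5.001, 4.73 and 3.61 in the K2KO libraries. LysM0 and K2KO3 crossed, and the means were 3.27 ± 0.645 and 4.43 ± 0.603 (SD, n = 4 each).

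Glutathione is made by glutamate-cysteine ligase and then by glutathione synthetase. The ligase consists of a catalytic subunit, encoded by Gclc, and a modifier subunit, encoded by Gclm, which raises the affinity of the enzyme for glutamate. Both subunit genes rose, and they were the only members of the NRF2 group whose genotypes did not overlap (among all tested genes, 12.9% were higher and 10.2% lower without overlap, 23.1% in all). Gclm (ENSMUSG00000028124.15, chromosome 3, 122245557 to 122270732, plus strand) was at 23.4, 19.1, 15.0 and 12.7 FPKM in LysM0 to LysM3 and at 30.2, 41.5, 28.5 and 27.6 FPKM in K2KO0 to K2KO3. LysM0 was the highest control and K2KO1 the highest library of all. The mean went from 17.6 ± 4.72 to 32.0 ± 6.48 FPKM (SD, n = 4 each), 1.82 times as high, with a log2 fold change of 0.88 (SE 0.19, 95% interval 0.44 to 1.32, limma adjusted p = 0.0196). This was the largest fold change of the 10 genes, and its promoter stretch above carries the motif on the opposite strand. The call held in 7 of the 8 fits with a library left out and was lost without LysM3 (limma adjusted p = 0.0527).

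Gclc (ENSMUSG00000032350.8, chromosome 9, 77754535 to 77794485, plus strand) was at 5.69, 4.83, 4.10 and 3.52 FPKM in LysM0 to LysM3 and at 6.52, 8.33, 7.26 and 5.83 FPKM in K2KO0 to K2KO3. LysM0 and K2KO3 were the closest libraries of the opposite genotypes. The mean went from 4.54 ± 0.937 to 6.98 ± 1.07 FPKM (SD, n = 4 each), 1.54 times as high, with a log2 fold change of 0.62 (SE 0.15, 95% interval 0.27 to 0.97, limma adjusted p = 0.0262). The call held without LysM0 and without K2KO3 and was lost without any one of the other 6 libraries (highest limma adjusted p = 0.0706). Gclm stood above Gclc in every library, and their ratio was 3.84 ± 0.241 in LysM and 4.57 ± 0.451 in K2KO libraries (SD, n = 4 each), with overlap between the genotypes.

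Gsr encodes glutathione reductase, which returns oxidized glutathione to its reduced form with NADPH (ENSMUSG00000031584.16, chromosome 8, 33652523 to 33698163, plus strand). It was at 29.9, 29.1, 26.7 and 24.4 FPKM in LysM0 to LysM3 and at 28.2, 37.4, 32.4 and 30.8 FPKM in K2KO0 to K2KO3. K2KO0 lay among the controls and the other K2KO libraries above them. Its log2 fold change was 0.22 (SE 0.098, 95% interval 0.00071 to 0.44), which did not pass (limma adjusted p = 0.131).

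Thioredoxin reductase 1, encoded by Txnrd1, keeps cytosolic thioredoxin reduced and so supplies the peroxiredoxins (ENSMUSG00000020250.9, chromosome 10, 82833951 to 82897712, plus strand). It was at 49.0, 35.9, 38.7 and 29.2 FPKM in LysM0 to LysM3 and at 43.6, 66.1, 54.8 and 54.8 FPKM in K2KO0 to K2KO3. K2KO0 fell below LysM0, and the other K2KO libraries were above all controls. The mean went from 38.2 ± 8.26 to 54.8 ± 9.17 FPKM (SD, n = 4 each), and Txnrd1 rose by a log2 fold change of 0.53 (SE 0.16, 95% interval 0.16 to 0.90, limma adjusted p = 0.0494). The adjusted p lay close to the threshold, and the call was lost without any one library other than LysM0 (highest limma adjusted p = 0.12).

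Srxn1 encodes sulfiredoxin, which repairs overoxidized peroxiredoxins (ENSMUSG00000032802.8, chromosome 2, 152105516 to 152111376, plus strand), and followed nearly the same library order as Txnrd1. It was at 48.4, 38.1, 39.8 and 32.1 FPKM in LysM0 to LysM3 and at 40.9, 64.2, 60.5 and 55.6 FPKM in K2KO0 to K2KO3. A log2 fold change of 0.48 (SE 0.16, 95% interval 0.12 to 0.83) did not pass (limma adjusted p = 0.0601). It passed without LysM0 and without K2KO0, the libraries that crossed.

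Prdx1 encodes peroxiredoxin 1, an abundant cytosolic peroxidase that is itself repaired by sulfiredoxin (ENSMUSG00000028691.12, chromosome 4, 116685544 to 116700822, plus strand). It was at 949, 903, 1001 and 786 FPKM in LysM0 to LysM3 and at 784, 1155, 990 and 917 FPKM in K2KO0 to K2KO3. The genotypes overlapped fully, with K2KO0 lowest and K2KO1 highest of the 8 libraries. Between genotypes the log2 fold change was 0.071 (SE 0.12, 95% interval -0.21 to 0.35, limma adjusted p = 0.698), and it turned to -0.038 after a correction for GC content and length and to -0.022 without K2KO1. Under quantile normalization it was 0.34 (limma adjusted p = 0.101). Prdx1 values are uncertain to the extent that reads were shared with the copies Gm21399 (98.3% identity over 597 bases, 112 and 123 FPKM as genotype means) and Gm7204 (97.5% identity, 86.0 and 90.9 FPKM). Its promoter stretch carries the same motif as those of Gclm and Txnrd1, and Prdx1 was not called under any setting.

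Hmox1 encodes heme oxygenase 1, which splits heme into biliverdin, iron and carbon monoxide (ENSMUSG00000005413.7, chromosome 8, 75093621 to 75100589, plus strand, 2.77 Mb from Klf2). It was at 556, 852.4, 704 and 581 FPKM in LysM0 to LysM3 and at 682, 852.2, 684 and 748 FPKM in K2KO0 to K2KO3. The highest library of each genotype reached the same level, and LysM0 and LysM3 were the lowest. The log2 fold change was 0.15 (SE 0.14, 95% interval -0.16 to 0.47, limma adjusted p = 0.442), an interval that includes both no difference and the size measured for Nfe2l2. It was 0.40 under quantile normalization (limma adjusted p = 0.061) and 0.00051 without LysM0 and K2KO1 (limma adjusted p = 0.998).

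Nqo1 encodes a quinone reductase that uses NADH or NADPH and was listed just above the filter (ENSMUSG00000003849.8, chromosome 8, 107388225 to 107403206, minus strand). It was at 1.29, 1.21, 1.29 and 1.00 FPKM in LysM0 to LysM3 and at 0.962, 1.42, 1.88 and 1.18 FPKM in K2KO0 to K2KO3. The K2KO libraries spread on both sides of the controls, so that K2KO0 was lowest and K2KO2 highest of all 8. For Nqo1 the log2 fold change was 0.14 (SE 0.21, 95% interval -0.32 to 0.61, limma adjusted p = 0.641), and it was -0.018 without K2KO2. The number of reads behind values this low is not known from FPKM.

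**Figure D2:**
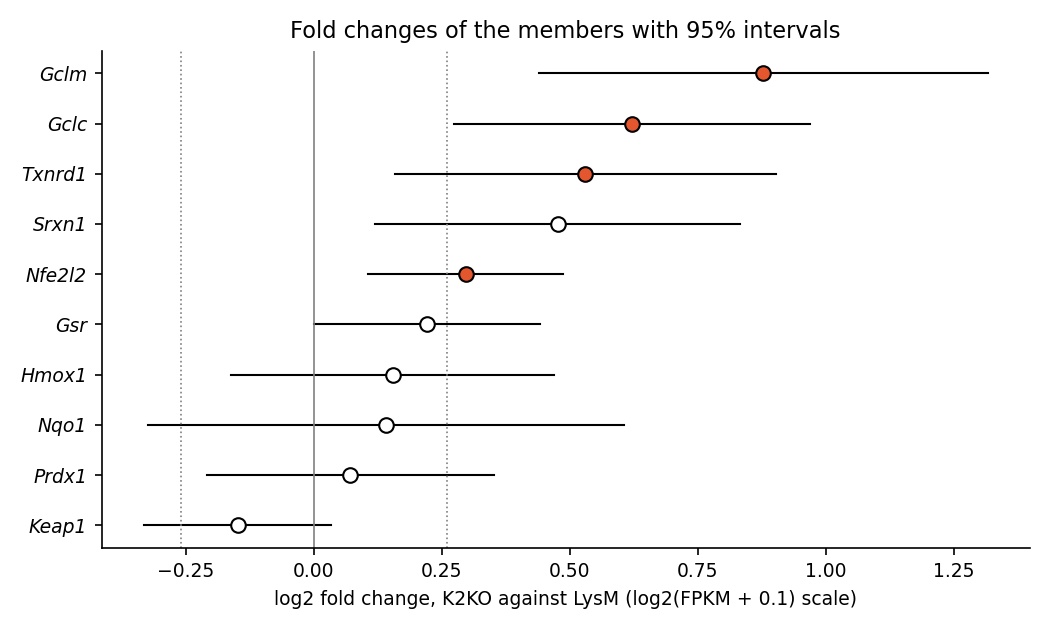
Log2 fold change of the libraries labelled K2KO against LysM for each of the 10 genes, on the log2(FPKM + 0.1) scale, with lines for the 95% interval of the limma fit. Filled points (Gclm, Gclc, Txnrd1 and Nfe2l2) were called, open points were not, and dotted lines mark the threshold of 0.26 in either direction. Point estimates run from -0.15 for Keap1 to 0.88 for Gclm.

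The libraries of one genotype differed in a way that many of the 10 genes shared. K2KO1 was the highest of all 8 libraries for 7 of the genes, and LysM3 was the lowest for 5. Within the genotypes, LysM0 was the highest control for 6 genes and K2KO0 the lowest K2KO library for 6. Relative to each gene's mean over the 8 libraries, the median deviation of the 10 genes was 0.026, -0.092, -0.18 and -0.29 on the log2 scale in LysM0 to LysM3 and -0.051, 0.32, 0.25 and 0.061 in K2KO0 to K2KO3. By this median LysM0 and K2KO3 were the closest libraries of opposite genotype, and LysM3 and K2KO1 the farthest apart. The size of the steps among low FPKM gave relative depths of 0.895 to 1.44, with LysM0 set to 1. K2KO1 was the deepest and LysM3 was at 1.24, and the comparison of genotypes gave an exact two-sided permutation p of 0.514. With LysM0 and K2KO1, the highest library of each genotype for most of the genes, left out together, Nfe2l2, Gclm, Gclc and Txnrd1 were again called, with 14.5% of all tested genes called. This fit was added after the data were seen. Without LysM0 alone, 5 of the 10 genes were called. Without K2KO1 alone, only Gclm was called, and the limma adjusted p was 0.0963 for Nfe2l2, 0.0677 for Gclc and 0.119 for Txnrd1.

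**Figure D3:**
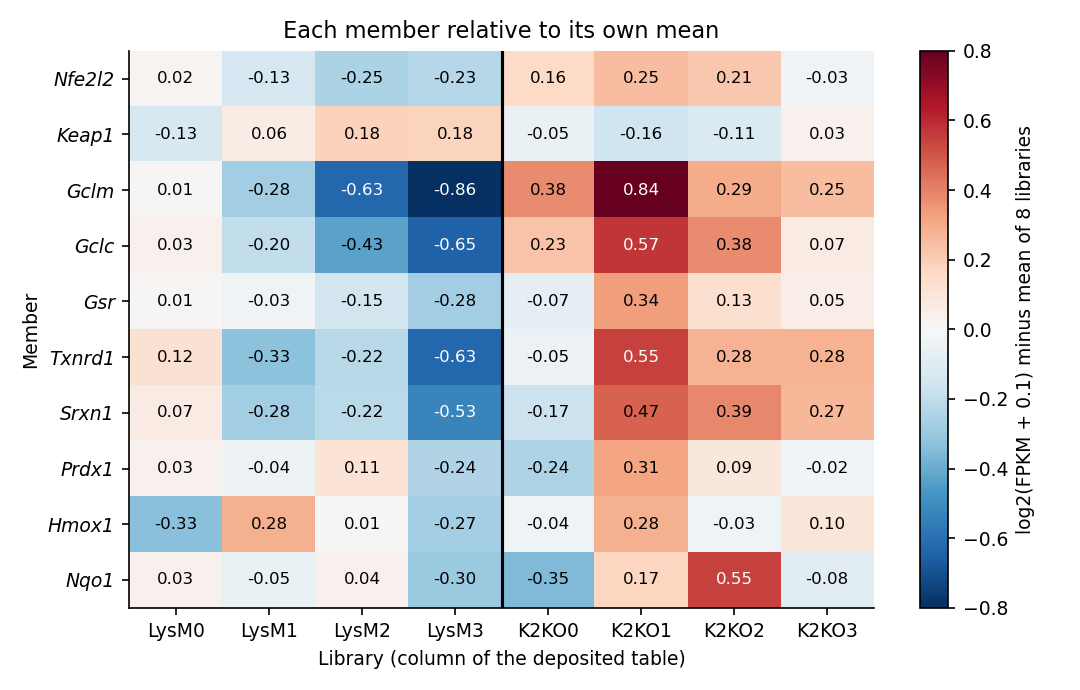
Each of the 10 genes in each library relative to its own mean over the 8 libraries, as the difference in log2(FPKM + 0.1), with red above and blue below the mean (colours stop at 0.8 in either direction). The line separates LysM from K2KO libraries. K2KO1 is the highest of the 8 libraries for 7 genes and LysM3 the lowest for 5, and Keap1 is lowest in K2KO1.

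Within the glutathione and thioredoxin systems, the NRF2 genes could be set against partners that were measured in the same libraries. These 4 ratios, with those of Gclm over Gclc and Nfe2l2 over Keap1, were chosen after the values were seen and are given as a description. Exact permutation tests were run on them, but because of that choice their p-values are not used here. The denominators Gss, Txnrd2 and Prdx2 were themselves called lower (values below). Gclc over Gss, the successive steps of glutathione synthesis, was 0.522, 0.430, 0.383 and 0.345 in LysM0 to LysM3 and 0.847, 0.996, 0.795 and 0.597 in K2KO0 to K2KO3. Txnrd1 over Txnrd2, the cytosolic over the mitochondrial reductase, was 1.97, 1.39, 1.52 and 1.22 in the LysM and 2.65, 3.55, 2.68 and 2.34 in the K2KO libraries. In neither ratio did the genotypes overlap. The same held for Prdx1 over Prdx2 (5.42 ± 0.635 in LysM and 7.76 ± 1.09 in K2KO libraries, SD, n = 4 each) and for Srxn1 over Prdx1 (0.0435 ± 0.00515 and 0.0574 ± 0.00428). Because a ratio moves with either gene, these values state an unequal difference only.

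The wider pathway held calls in both directions. Besides the 10 genes, 7 lists with 82 genes were described, of which 80 were listed and 70 passed the filter. Of the 70, 8 were called higher and 8 lower, which is 22.9% beside 18.4% of all tested genes, and the median log2 fold change was 0.030.

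Among 12 partners and regulators of NRF2, 11 were tested, 2 were higher and none lower (median 0.18). This is 18.2%, near the 18.4% of all tested genes. Cul3, the ligase scaffold that works with KEAP1, rose from 15.7 ± 0.971 to 20.2 ± 2.57 FPKM (SD, n = 4 each, log2 fold change 0.36, limma adjusted p = 0.0307). Gsk3b, a kinase that marks NRF2 for degradation apart from KEAP1, rose from 6.49 ± 0.757 to 8.31 ± 0.811 FPKM (0.35, limma adjusted p = 0.0369). In both genes the genotypes did not overlap, and both encode proteins that lower NRF2. Neither of these calls held after a correction for GC content and length, which left log2 fold changes of 0.12 for Cul3 (limma adjusted p = 0.237) and 0.18 for Gsk3b (limma adjusted p = 0.144), and that of Gsk3b was also lost under quantile normalization (0.30, limma adjusted p = 0.0626). Sqstm1, the autophagy receptor that can draw KEAP1 away, had 348 ± 25.5 and 396 ± 44.1 FPKM (0.18, limma adjusted p = 0.177), and was called higher under quantile normalization (0.37, limma adjusted p = 0.0329). Nfe2l1, which encodes the related factor NRF1, had 42.2 and 40.8 FPKM (-0.045, limma adjusted p = 0.619). Bach2 was under the filter.

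Of 21 other genes for the supply and use of glutathione, 15 were tested, none was called higher and 3 were lower, which is 20% beside 18.4% of all tested genes (8 log2 fold changes above 0, median 0.060, with 5 at an unadjusted p under 0.05 in either direction). Gpx1, a glutathione peroxidase and the most abundant of the list, was at 1709, 2185, 1573 and 2087 FPKM in LysM0 to LysM3 and at 1301, 1326, 1268 and 1489 FPKM in K2KO0 to K2KO3. All K2KO libraries lay below all controls, and Gpx1 had a log2 fold change of -0.48 (limma adjusted p = 0.0247). Its call was lost under quantile normalization (-0.20, limma adjusted p = 0.25) and under the GC and length correction (-0.26, limma adjusted p = 0.0756). Gss, glutathione synthetase, fell from 10.8 ± 0.426 to 8.74 ± 0.900 FPKM (SD, n = 4 each, log2 fold change -0.30, limma adjusted p = 0.0293). Gstp1, a glutathione transferase, fell from 38.9 ± 2.84 to 31.5 ± 1.34 FPKM (-0.30, limma adjusted p = 0.0197), but its pseudogene Gstp-ps, 97.6% identical over 631 bases, was listed at 46.0 and 34.9 FPKM, so the share of reads that belongs to Gstp1 is uncertain. Under the GC and length correction Gstp1 was at -0.097 (limma adjusted p = 0.568). Slc3a2, the heavy chain of the cystine transporter, had 308 and 334 FPKM (0.12, limma adjusted p = 0.429), and was called higher under quantile normalization (0.31, limma adjusted p = 0.0447). Mgst1, a microsomal transferase, had 169 and 194 FPKM (0.22, limma adjusted p = 0.243), and 0.39 under quantile normalization (limma adjusted p = 0.0907). The transporter's light chain Slc7a11, a widely used NRF2 and ATF4 target, was under the filter at 0.149 and 0.208 FPKM (exact permutation p = 0.0857).

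The other genes of the thioredoxin and peroxiredoxin system also included no gene called higher. All 12 were tested, 3 were lower and 1 had a log2 fold change above 0 (median -0.16, with 5 at an unadjusted p under 0.05). The calls made up 25% of the list, beside 18.4% of all tested genes (9.84% higher and 8.61% lower). Prdx2, a cytosolic peroxiredoxin, was at 154, 172, 177 and 169 FPKM in LysM0 to LysM3 and at 113, 123, 132 and 126 FPKM in K2KO0 to K2KO3. It fell without overlap (log2 fold change -0.44, limma adjusted p = 0.00954), and was called lower in all 8 fits with a library left out. Prdx2 lies on chromosome 8, 12.6 Mb from Klf2, and overlaps Junb on the other strand. Txn2, mitochondrial thioredoxin, fell from 115 ± 1.53 to 92.6 ± 8.49 FPKM (SD, n = 4 each, -0.31, limma adjusted p = 0.021). Txnrd2, its reductase, fell from 25.03 ± 0.822 to 19.7 ± 2.98 FPKM (-0.35, limma adjusted p = 0.0374). Prdx5 had 505 and 378 FPKM (-0.44, limma adjusted p = 0.0895), and Msrb1, a methionine sulfoxide reductase, 284 and 265 FPKM (-0.11, limma adjusted p = 0.589). Under quantile normalization Prdx5 was at -0.24 (limma adjusted p = 0.253).

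Enzymes that remove superoxide and hydrogen peroxide included no call among the 4 of 5 genes tested by limma, with 2 at an unadjusted p under 0.05. Among all tested genes 18.4% were called. Catalase, encoded by Cat, was at 92.8, 60.1, 73.1 and 60.5 FPKM in LysM0 to LysM3 and at 96.0, 156, 101 and 88.3 FPKM in K2KO0 to K2KO3. K2KO3 lay below LysM0, and the log2 fold change of 0.61 missed the threshold (limma adjusted p = 0.0532). Sod1, cytosolic superoxide dismutase, had 576 and 467 FPKM (-0.30, limma adjusted p = 0.0625).

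Of 10 genes that supply NADPH, 9 were tested, 1 was higher and 1 lower (median 0.028), which is 22.2% beside 18.4% of all tested genes. Nnt, the mitochondrial transhydrogenase that makes NADPH from NADH, was at 8.88, 7.82, 7.42 and 6.75 FPKM in LysM0 to LysM3 and at 12.6, 13.1, 12.0 and 12.0 FPKM in K2KO0 to K2KO3. The 8 values fell into separate ranges by genotype, and Nnt rose by 0.69 on the log2 scale (SE 0.083, limma adjusted p = 0.00336). It was called in all 8 fits with a library left out. Another annotated gene named Nnt overlaps it on the same strand, is identical over 3339 bases and was not listed. FPKM do not show which form of the gene the mice carried or whether the transcripts encode a complete enzyme, and neither was tested. Pgls, an enzyme of the pentose phosphate pathway 0.718 Mb from Klf2, fell from 181 ± 9.29 to 131 ± 25.3 FPKM (SD, n = 4 each, -0.49, limma adjusted p = 0.0249). Taldo1 and Pgd of the same pathway had log2 fold changes of -0.071 (limma adjusted p = 0.643) and 0.028 (limma adjusted p = 0.835). Pgd was at 0.22 under quantile normalization (limma adjusted p = 0.143).

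Heme and iron genes are the neighbours of Hmox1 in function. Of 9, 7 were listed and tested, 2 were higher and none lower (median 0.20). This is 28.6% beside 18.4% of all tested genes, of which 9.84% were called higher. Slc40a1, the iron exporter ferroportin, was at 26.05, 26.2, 24.8 and 21.2 FPKM in LysM0 to LysM3 and at 40.2, 56.0, 40.0 and 28.5 FPKM in K2KO0 to K2KO3. K2KO3 was the lowest of its genotype yet above all controls, and Slc40a1 rose by 0.71 on the log2 scale (SE 0.18, limma adjusted p = 0.0262). Fech, ferrochelatase, which inserts iron into heme, rose from 5.62 ± 0.482 to 7.78 ± 1.12 FPKM (SD, n = 4 each, 0.46, limma adjusted p = 0.0237). Blvrb, biliverdin reductase B, had 242 and 204 FPKM (-0.24, limma adjusted p = 0.0919), and Hmox2, the constitutive heme oxygenase, 130 and 110 FPKM (-0.24, limma adjusted p = 0.134). Under quantile normalization Blvrb was at -0.054 (limma adjusted p = 0.685) and Hmox2 at -0.081 (limma adjusted p = 0.556). The ferritin genes Fth1 and Ftl1 were not analysed here, because the row named Fth1 carries the identifier of a pseudogene, Fth-ps3, and no row carries that of Ftl1. Gapdh was listed at 0 to 0.4999 FPKM while Actb was listed at 1962 to 2949 FPKM, so a value near 0 in this table was not taken as absence of the transcript.

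Of 13 detoxification enzymes, 12 were tested, with 3 higher and 1 lower (median 0.15). These calls made up 33.3%, the largest share among the 7 lists, beside 18.4% of all tested genes (9.84% higher and 8.61% lower). Osgin1, an oxidative stress-induced gene, was at 12.2, 10.6, 9.997 and 9.24 FPKM in LysM0 to LysM3 and at 14.2, 14.7, 15.4 and 15.98 FPKM in K2KO0 to K2KO3. Without overlap between genotypes it rose by 0.52 on the log2 scale (SE 0.086, limma adjusted p = 0.0106), and it was called in all 8 fits with a library left out. Ugdh, which makes UDP-glucuronate, rose from 16.2 ± 0.661 to 21.1 ± 2.01 FPKM (SD, n = 4 each, 0.37, limma adjusted p = 0.0153). Ugt1a7c, a glucuronosyltransferase, rose from 18.2 ± 1.14 to 31.0 ± 8.24 FPKM (0.72, limma adjusted p = 0.026). It shares exons with the other Ugt1a genes, and Ugt1a1 was listed at 8.19 and 4.09 FPKM, so the split of reads among them is uncertain. Cbr3, a carbonyl reductase, fell from 21.7 ± 0.262 to 17.2 ± 1.62 FPKM (-0.34, limma adjusted p = 0.0176). Esd and Akr1b8 had log2 fold changes of 0.16 (limma adjusted p = 0.355) and 0.15 (limma adjusted p = 0.399). Under quantile normalization these were 0.33 (limma adjusted p = 0.076) and 0.24 (limma adjusted p = 0.198).

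The calls in these 7 lists differed in how far they rested on single libraries. Those of Nnt, Prdx2 and Osgin1 held in all 8 fits with a library left out. Ugdh and Cbr3 lost their calls without LysM3 (limma adjusted p = 0.0527 and 0.0554), and Gstp1 without LysM1 or K2KO0 (highest limma adjusted p = 0.0536). Fech was not called without LysM3, K2KO0, K2KO1 or K2KO2, and Txn2 not without LysM1, LysM3, K2KO1 or K2KO2. Gpx1 and Slc40a1 each lost the call without LysM1, LysM3, K2KO0 or K2KO2, and besides these Gpx1 without K2KO1 and Slc40a1 without LysM2. Cul3, Gsk3b, Gss, Pgls and Ugt1a7c kept it only without LysM0 or K2KO3, and Txnrd2 only without K2KO3 (highest limma adjusted p of these 6 genes 0.096). Cul3, Gsk3b, Gpx1, Gss, Txnrd2, Pgls, Slc40a1, Fech and Ugt1a7c were not called without a filter on low values, nor under ordinary least squares. Their log2 fold changes were the same there. The highest adjusted p was 0.108 by limma without the filter (Gpx1) and 0.0851 by ordinary least squares (Txnrd2). The scaling of the libraries also bore on the calls in the 7 lists. Under quantile normalization Txn2 was not called (-0.17, limma adjusted p = 0.075), Gstp1 lay under the fold threshold (-0.24), and Prdx2 stayed called at -0.28 (limma adjusted p = 0.0181). Gss and Gstp1 both lay just under that threshold at -0.26 with each library scaled to the same upper quartile. Cat and Sod1, not called in the comparison of all 8 libraries, were called without LysM0 or without K2KO3. Prdx5 (-0.57, limma adjusted p = 0.0211) and Blvrb (-0.30, limma adjusted p = 0.0458) were called lower without K2KO3. Hmox2 was called lower without LysM0 (-0.33, limma adjusted p = 0.0322). Cat was also called under quantile normalization (0.73, limma adjusted p = 0.0479) and upper-quartile scaling (0.65, limma adjusted p = 0.0474). Sod1 was also called under the GC and length correction (-0.38, limma adjusted p = 0.0434), under a block on the column number (-0.30, limma adjusted p = 0.0244) and with both (limma adjusted p = 0.0342), and was at -0.099 under quantile normalization (limma adjusted p = 0.358). Gss (limma adjusted p = 0.0527) and Txnrd2 (limma adjusted p = 0.0526) were not called under the block alone, at the same log2 fold changes.

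**Figure D4:**
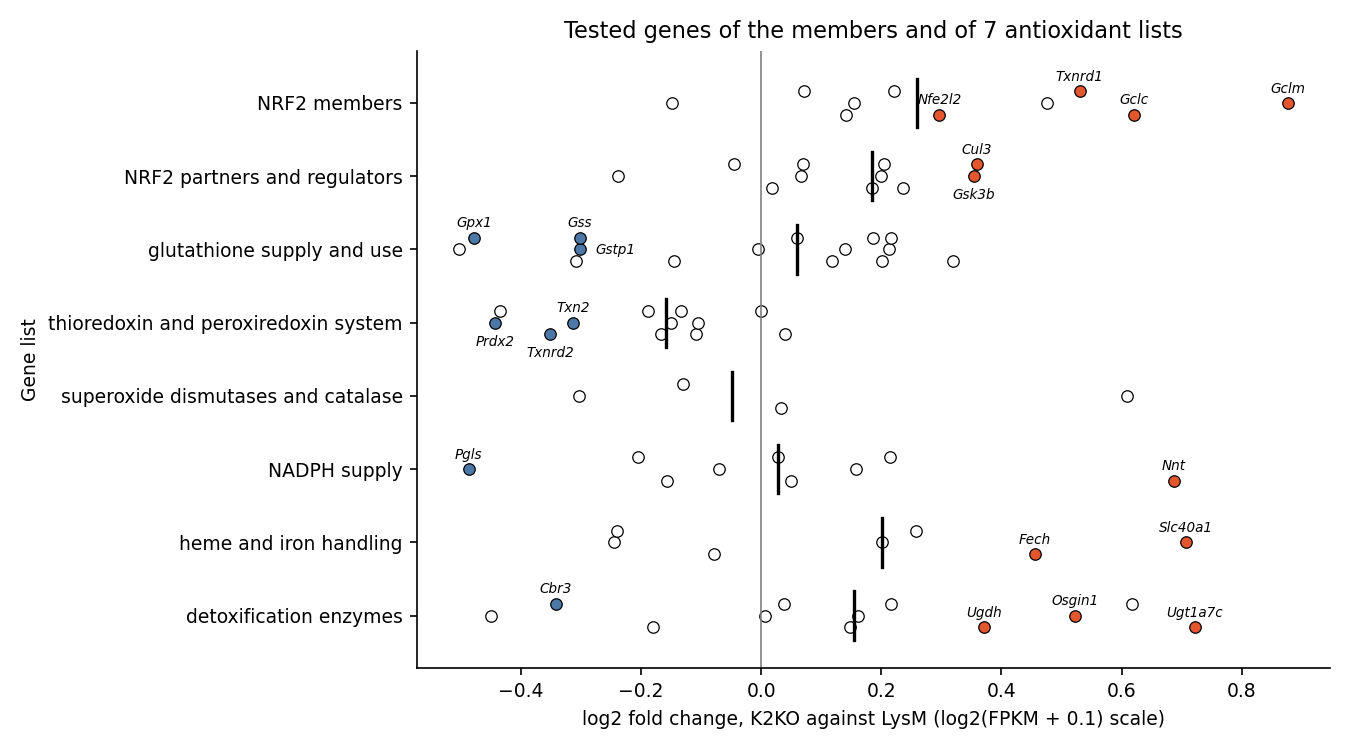
Log2 fold change (K2KO against LysM, log2(FPKM + 0.1) scale) of every tested gene in the NRF2 group and in 7 further lists, 1 point per gene. Red points were called higher, blue points lower and open points not called, and the vertical bar of each row is its median. The medians run from -0.16 for the thioredoxin and peroxiredoxin system to 0.26 for the NRF2 group.

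Fold changes in these libraries moved with the GC content of the transcripts. The longest transcript of Gclm has 42.1% GC, and tested genes within 1 point of that had a median log2 fold change of 0.16, while genes near the 58.0% of Keap1 had a median of -0.14. The 4 called genes lay above the medians of their GC neighbours by construction, since a call needs a log2 fold change over 0.26. Of these 4, Gclm lay farthest above its median. After each library was corrected by a local regression on GC content and length, the log2 fold change of Gclm was 0.66 (limma adjusted p = 0.0515), of Gclc 0.57 (limma adjusted p = 0.0483), of Txnrd1 0.49 (limma adjusted p = 0.0828) and of Nfe2l2 0.26 (limma adjusted p = 0.0912). Gclc was then the 1 called gene of the 10, and 9.59% of all tested genes were called. Srxn1 and Hmox1, with 53.3% GC each, moved up to 0.51 (limma adjusted p = 0.0677) and 0.27 (limma adjusted p = 0.196), and Keap1 moved to -0.080 (limma adjusted p = 0.559). In the further lists, Nnt, Osgin1, Prdx2, Gss, Pgls and Ugt1a7c were still called under this correction, and the other called genes were not. Besides Cul3, Gsk3b, Gpx1 and Gstp1, these were Ugdh at 0.16 (limma adjusted p = 0.0681), Cbr3 at -0.14 (limma adjusted p = 0.229), Fech at 0.29 (limma adjusted p = 0.076), Slc40a1 at 0.53 (limma adjusted p = 0.0564), Txnrd2 at -0.30 (limma adjusted p = 0.0667) and Txn2, which lay under the fold threshold at -0.22. With a block on the column number added to the correction, Gss (limma adjusted p = 0.0627) and Pgls (limma adjusted p = 0.059) were not called, at the same log2 fold changes. Slc40a1 was called there (limma adjusted p = 0.0367).

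**Figure D5:**
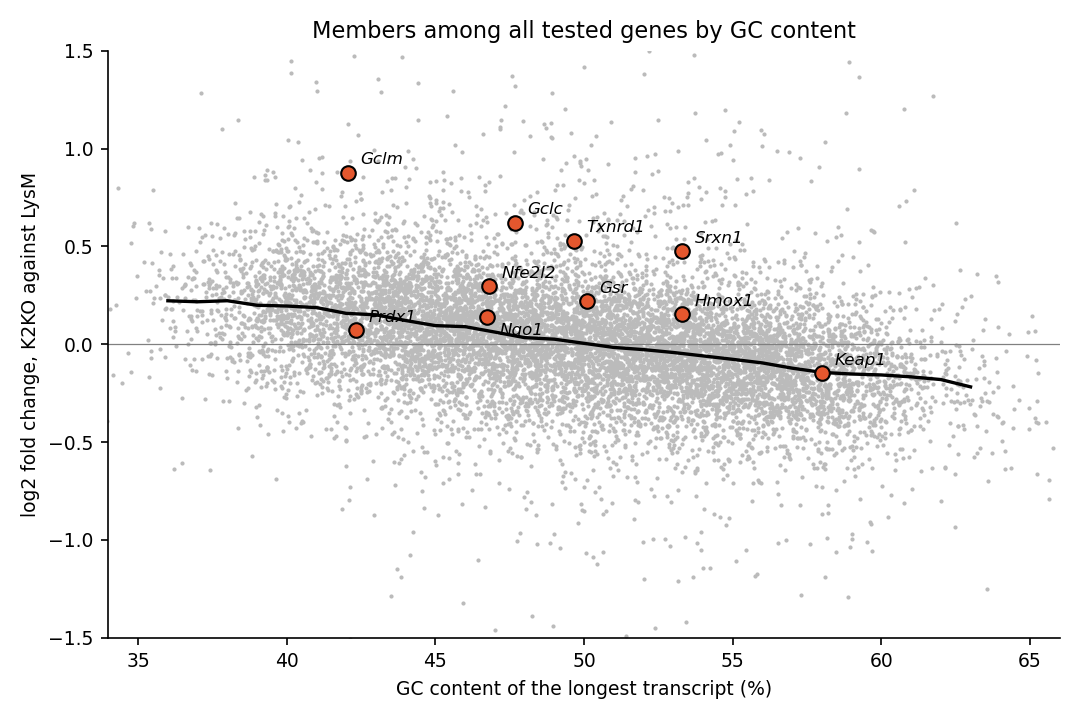
Log2 fold change (K2KO against LysM) of the tested genes against the GC content of their longest transcript in percent, as grey points, with the running median within 1 point of GC as a black line. Red points are the 10 NRF2 genes. The line falls from above 0 at low GC to below 0 at high GC, with Gclm farthest above it and Prdx1 and, by less than 0.01, Keap1 below it, and 158 genes lie outside the axes.

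The genes most like Nfe2l2 and Hmox1 were found by the root mean square difference from each in log2(FPKM + 0.1), centred per gene, over the 8 libraries and 10920 tested genes. Nfe2l2 itself had a root mean square of 0.18 around its mean. Tbcel (0.027) and Ube3c (0.035) differed from it least, with 5.55 and 6.88 FPKM and with 3.73 and 4.56 FPKM as genotype means. Hmox1 had a root mean square of 0.21, and the nearest genes, Mms22l and Slco2b1, differed from it by 0.10 and 0.11. The nearest genes of Hmox1 were thus farther from it than those of Nfe2l2.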

How the data were processed

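BMDM libraries of 4 LysM and 4 K2KO samples were prepared from total RNA with a stranded kit and sequenced on an Illumina HiSeq instrument. The authors deposited 1 table of FPKM for 23761 genes with a column per library and no pooling. The study's text names TopHat2 and Cufflinks with the mm10 genome, and the submitters' processing notes list STAR, Cufflinks and Cuffdiff. Versions, and whether strand was used in counting, are not given in the sources used here. FPKM carry no read counts, so absolute depth is unknown, and no count test, counting interval or detection floor could be given. Labels name a vehicle, and the age of 3 months. The study gives 4 mice per genotype, so p-values reflect the spread between these mice.

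Values were compared as log2(FPKM + 0.1) for genes with a mean of at least 1 FPKM, using limma 3.58.1 in R 4.3.3 (lmFit, eBayes with an intensity trend, no covariate) and Benjamini-Hochberg adjustment over all 10920 tested genes. The thresholds (adjusted p under 0.05, absolute log2 fold change over 0.26) were those of the study. For single values, an exact permutation test (scipy 1.17.1, two-sided) used all 35 splits of 4 against 4. The procedure was run on simulated data with independent normal noise, in which 200 genes changed by 1 on the log2 scale. It recovered 86% of these, with 3 false calls among 175. In the main comparison no gene of the NRF2 group changed by as much, and the recovery of smaller changes was not tested. Positions, GC content and transcript lengths came from GENCODE M21 (GRCm38), matched by identifier for 23645 genes, and gene names follow that match. Near-identical copies were found with blastn 2.17.0 at 95% identity over at least 200 bases.

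The members and gene lists were chosen with earlier results of these data known. Named genes are the 10 members, Klf2 and, of each other list, the called genes (at most 5) with up to 2 further genes of highest mean FPKM, plus the 2 genes most like Nfe2l2 and Hmox1. After their values were seen, Slc7a11, Gapdh, Actb, Bach2, the copies and overlapping genes, the single markers and the ratios were added. Alternatives were pseudocounts of 1 and 0.01, a minimum mean of 0.1 FPKM or none, upper-quartile and quantile scaling, limma with no trend in intensity, ordinary least squares, an absolute log2 fold change over 1, a correction for GC content and length (local regression, span 0.3), a block on the column number and each library left out. The fit without LysM0 and K2KO1 was added after seeing the data.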

Additional observations from a re-analysis of the deposited data

Results flagged for a closer look

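Of 82 groups of 4 libraries checked among the named genes, 1 held a library far from the other 3. Pgls was at 169 FPKM in K2KO3, while K2KO0, K2KO1 and K2KO2 had 117, 116 and 122 FPKM, so that the gap to the nearest library took up 0.885 of the group's range (Dixon's ratio, past its 95% critical value). Chance alone gives about 1 such group in 20, or 4.1 of the 82. The LysM libraries had 173, 190.5, 174 and 188 FPKM, so K2KO3 lay nearest to them but below all 4.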

How the results depend on the processing

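With every library kept, 4 of the 10 NRF2 genes were called, and this count was 3 to 5 with either other pseudocount, a minimum mean of 0.1 FPKM, quantile or upper-quartile scaling, and limma without an intensity trend. The cause of the changes below was not tested. Without a filter on low values 1090 of 21236 tested genes were called, in place of 2014 of 10920, and 1 of the 10 (Gclm). Ordinary least squares called 746 genes and 0 of the 10 (5 at an unadjusted p under 0.05). An absolute log2 fold change over 1 left 110 genes and 0 of the 10. The GC and length correction left 1045 genes and 1 of the 10, and the same correction with the replicate block left 871 genes and 2 of the 10 (Gclm and Gclc). Leaving out 1 library gave 543 (without LysM3) to 2863 genes (without K2KO3), and 0 (without LysM3, with 5 at an unadjusted p under 0.05) to 5 of the 10 (without LysM0). The number of the 10 was 1 without LysM1, LysM2, K2KO1 or K2KO2 (Gclm each time), 2 without K2KO0 (Gclm and Srxn1) and 3 without K2KO3. Gclm was called in 9 of 11 other settings with all libraries, Gclc in 9, Nfe2l2 in 7, Txnrd1 in 3 and Srxn1 in 2.

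The direction of 7 fold changes that were not called turned under some setting. The log2 fold change of Prdx1 was -0.038, of Klf2 0.048, of Msrb1 0.077, of Taldo1 0.072 and of Pgd -0.022 under the GC and length correction, with or without the block. Under quantile normalization Nfe2l1 was at 0.037, Msrb1 at 0.072 and Taldo1 at 0.15. With 1 library left out, Nqo1 ranged from -0.018 (without K2KO2) to 0.28, Prdx1 from -0.022 (without K2KO1) to 0.16, Taldo1 from -0.15 to 0.0031 (without K2KO0) and Pgd from -0.019 (without LysM3) to 0.087, with -0.0096 without K2KO1. Among the called genes for which the alternatives were run, Actb alone turned, to 0.0061 under quantile normalization, where it was not called (limma adjusted p = 0.963).

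The labels do not say whether the column numbers pair the samples. Deviations from the genotype means correlated at -0.07, 0.02, 0.07 and -0.06 between same-numbered libraries across the tested genes. Between differently numbered libraries they ran from -0.14 (LysM3 with K2KO1) to 0.18 (LysM0 with K2KO1). A block on the number called 2057 genes and 3 of the 10 (Txnrd1 was not called).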
